A study of Mus musculus with 2 samples.

Results

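Resident macrophages of the mouse kidney were followed here through 10 genes that mark them, Csf1r, Adgre1, Cd68, Lyz2, C1qa, C1qb, C1qc, Mrc1, Fcgr1 and Tyrobp, in RNA of isolated proximal tubular (PT) cells. The genes were chosen by name, with earlier results of these data known. Of the 10, 9 were joined to a probe set, out of 19505 genes on the array. Cd68, a lysosomal membrane protein used to stain macrophages, was not analysed here. The samples were PT cells of KAT5 KO mice, which carry γGT-Cre and homozygous floxed KAT5 on a C57BL/6J background, and PT cells of wild-type (WT) mice, all 8 weeks old and labelled male. Each genotype had 1 Clariom S array, on which labelled RNA binds short probes that are summarised into a log2 level per probe set. The γGT promoter drives Cre in PT cells, so macrophages are not the cells the knockout is meant for. The sources used here do not give how many mice stand behind an array or whether the WT mice carried the floxed alleles. Endothelial cells had been removed with an antibody to CD31 before magnetic selection for Prominin1, and the methods name no step against leukocytes. The labels describe the samples as from embryos in one field and as from mice of 8 weeks in another.

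Tissue macrophages are phagocytes that live within organs, and in the kidney they lie between the tubules. They depend on signals through the CSF1 receptor, take up dying cells and immune complexes, and secrete C1q, the first component of the classical complement pathway. A preparation of tubule cells can hold some of them or their RNA.

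The targeted gene Kat5 had a log2 level of 8.67 on the KAT5 KO array and 10.20 on the WT array, which is 34.8% of the WT level. Although both samples were labelled male, the Y-linked genes Uty, Eif2s3y and Kdm5d lay at 3.42, 2.29 and 3.76 on the KAT5 KO array, under the background level, against 9.84, 10.11 and 7.69 on the WT array. The background level was a log2 level of 5.13, the higher of the 95th percentiles that odorant, vomeronasal and taste receptor genes reached on the arrays. Of the 16 PT markers listed, 16 were above background on both arrays and all were 2-fold or more higher on the KAT5 KO array, with a median log2 difference of 6.87. Among them Prom1, which encodes Prominin1, was at 13.74 on the KAT5 KO array and 9.07 on the WT array. Slc22a6 was near the background level on the WT array, at 5.21, against 14.45 on the KAT5 KO array. Of 12 markers of the loop of Henle and distal nephron, 10 were 2-fold or more lower, with a median of -3.59. Umod was at the highest value of the arrays, 19.93, on the WT array. These differences in tubule markers accompany every value below, and their part in the macrophage values was not tested. With 1 array per genotype there were no replicates, so the values below carry no error or p-value, and precision is limited by the number of arrays. All differences are the log2 level on the KAT5 KO array minus that on the WT array, and 2-fold, a log2 difference of 1, was used as the threshold of size.

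Of the 9 macrophage genes, 8 were 2-fold or more lower on the KAT5 KO array, 0 were higher and Lyz2 lay within 2-fold. Over all 11652 measured genes, which are those above background on at least 1 array, 15.9% were lower by 2-fold or more and 17.7% higher. The median difference of the 9 genes was -1.82, 3.52-fold lower, whereas the median over all measured genes was -0.05. The 9 genes were above background on both arrays, so none of their differences is a bound. They were read in bulk RNA. Fewer macrophages, less RNA per macrophage, more RNA from PT cells and fewer other leukocytes with some of these genes cannot be told apart there.

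**Figure D1:**
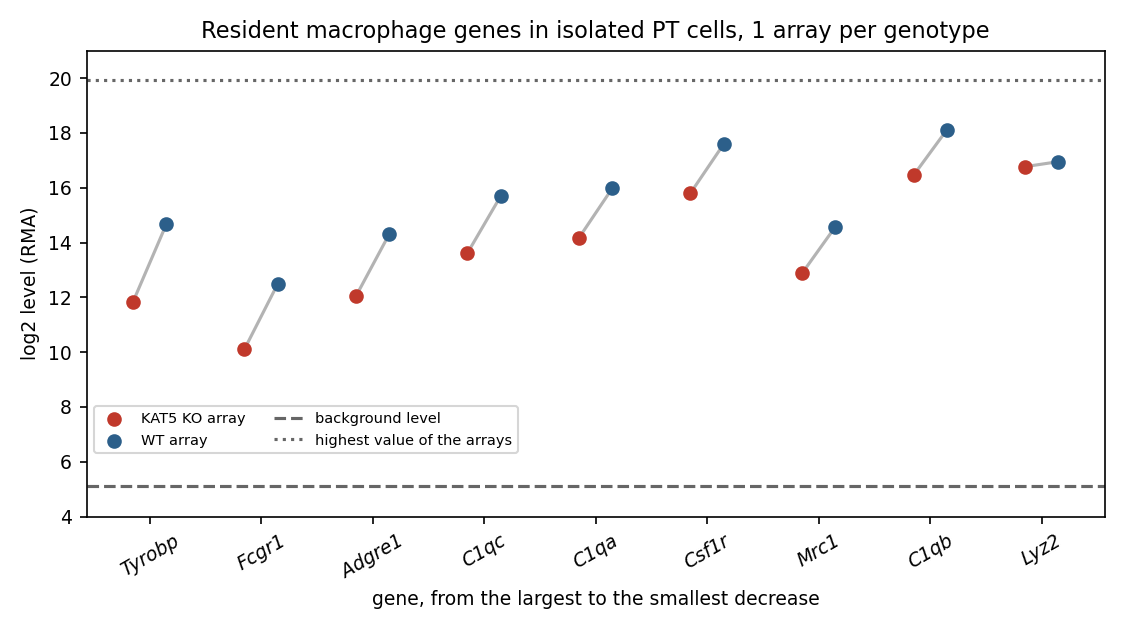
Log2 level of each of the 9 macrophage genes on the KAT5 KO array (red, left) and the WT array (blue, right), 1 array each, with the background level (dashed, 5.13) and the highest value of the arrays (dotted, 19.93). Levels are to be compared within a gene only. The KAT5 KO point lies below the WT point for every gene, and only Lyz2 has them nearly level.

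Csf1r encodes the receptor for the growth factors CSF1 and IL-34, on which macrophages depend for survival. Its level was 15.80 on the KAT5 KO array and 17.61 on the WT array, a difference of -1.80, or 28.6% of the WT level. Adgre1 encodes F4/80, the surface receptor by which mouse macrophages are most often stained. It stood at 12.04 on the KAT5 KO array and 14.32 on the WT array, a difference of -2.28. Mrc1, the mannose receptor CD206 of tissue macrophages, had levels of 12.88 on the KAT5 KO array and 14.58 on the WT array, a difference of -1.71. These 3 surface receptors kept between 20.7% and 30.6% of their WT level.

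Tyrobp encodes DAP12, a membrane adaptor that carries the signals of receptors with no signalling tail of their own. It was the member furthest apart, at 11.83 on the KAT5 KO array and 14.67 on the WT array, a difference of -2.84, or 13.9% of the WT level. Only 1.06% of the measured genes had a lower difference than Tyrobp. Fcgr1 encodes CD64, the high-affinity receptor for IgG, and was second, at 10.11 on the KAT5 KO array and 12.51 on the WT array, a difference of -2.40. For Fcgr1, 2.60% of the measured genes lay lower. In the RefSeq annotation, Tyrobp is followed on chromosome 7 by Hcst, which encodes DAP10, an adaptor of natural killer and T cells. Neither array had Hcst above background, with 4.15 on the KAT5 KO array and 4.28 on the WT array.

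The 3 chains of C1q, which assemble into the molecule that recognises immune complexes and dying cells, were lower together. C1qa was at 14.17 on the KAT5 KO array and 15.99 on the WT array, a difference of -1.82. C1qb was at 16.45 on the KAT5 KO array and 18.12 on the WT array, a difference of -1.67. C1qc was at 13.62 on the KAT5 KO array and 15.71 on the WT array, a difference of -2.09. The differences of the chains spanned 0.43 on the log2 scale, against 2.66 over all 9 genes. In the RefSeq annotation, C1qb, C1qc and C1qa are consecutive protein-coding genes on chromosome 4.

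C1qa, Adgre1 and Tyrobp had no promoter window from RefSeq (build GRCm38.p6), and Csf1r was left out of the search. Of the 10 genes, 6 were thus searched, C1qb, C1qc, Cd68, Fcgr1, Lyz2 and Mrc1. The 250 bases before the start of each were searched on both strands for GGAAGT, a core of sites bound by PU.1 and other ETS factors, and PU.1, encoded by Spi1, is the transcription factor that directs the myeloid fate. It was found in 5 of the 6 windows, all but that of Cd68, and in 19.7% of all 32851 windows searched. GAGGAA, whose last 4 letters can be the first 4 of GGAAGT, was found in 5 of the 6, all but that of Lyz2. It was in 23.3% of all windows. TATAAA was in 0 of the 6 and in 12.4% of all windows. The motifs were chosen after these windows had been read, so the counts beside the shares of all windows are no test. A match is a description of these letters and not of binding. The windows of C1qb (chr4:136886201-136886450, minus strand), C1qc (chr4:136892915-136893164, minus strand) and Fcgr1 (chr3:96293970-96294219, minus strand) are shown as those of genes that were 2-fold or more lower, each 5′ to 3′ and ending at the base before the start. Capitals mark the match, which reads ACTTCC since it lies on the opposite strand.
C1qb: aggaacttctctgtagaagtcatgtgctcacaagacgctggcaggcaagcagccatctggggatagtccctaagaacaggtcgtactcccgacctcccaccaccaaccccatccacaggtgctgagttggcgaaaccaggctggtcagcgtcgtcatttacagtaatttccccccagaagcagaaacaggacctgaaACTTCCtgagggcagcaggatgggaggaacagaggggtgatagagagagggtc
C1qc: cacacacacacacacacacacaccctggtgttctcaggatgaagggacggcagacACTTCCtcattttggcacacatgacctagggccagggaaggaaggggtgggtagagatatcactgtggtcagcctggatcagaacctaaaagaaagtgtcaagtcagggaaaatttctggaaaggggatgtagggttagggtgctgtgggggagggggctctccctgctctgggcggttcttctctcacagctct
Fcgr1: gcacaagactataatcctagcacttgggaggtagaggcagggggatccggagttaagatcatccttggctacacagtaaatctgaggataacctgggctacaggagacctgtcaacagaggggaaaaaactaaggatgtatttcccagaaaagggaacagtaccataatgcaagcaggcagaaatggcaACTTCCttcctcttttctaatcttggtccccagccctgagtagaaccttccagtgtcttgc
The match began 53 bases before the start of C1qb, 195 before that of C1qc and 61 before that of Fcgr1. In the window of Mrc1, which is not shown, it began 211 bases before the start.

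Lyz2 encodes lysozyme M, a bacteria-degrading enzyme that macrophages, monocytes and neutrophils make in large amounts. It stood apart from the other members, at 16.77 on the KAT5 KO array and 16.95 on the WT array, a difference of -0.18, or 88.1% of the WT level. The next member, C1qb, lay 1.48 further down on the log2 scale. With a trend of the difference on mean level removed, Lyz2 turned to 0.30, while C1qb remained lower by 1.17. Its neighbour and near copy Lyz1, the lysozyme of Paneth cells in the gut, was at 7.51 on the KAT5 KO array and 6.68 on the WT array, a difference of 0.82. Whether the probes of Lyz2 also bind Lyz1 transcripts is not given in the sources used here. Without Lyz2, the median of the other 8 genes was -1.95 and their differences ran from -2.84 to -1.67. The promoter windows of Lyz2 (chr10:117282273-117282522, minus strand) and Lyz1 (chr10:117292869-117293118, minus strand) are shown because Lyz2 is the member that was not lower and Lyz1 its copy, with capitals as above.
Lyz2: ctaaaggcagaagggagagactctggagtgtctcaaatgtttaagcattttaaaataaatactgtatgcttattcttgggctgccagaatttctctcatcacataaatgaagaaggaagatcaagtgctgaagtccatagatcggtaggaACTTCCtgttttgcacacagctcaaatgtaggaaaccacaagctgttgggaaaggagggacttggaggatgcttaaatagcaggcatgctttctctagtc
Lyz1: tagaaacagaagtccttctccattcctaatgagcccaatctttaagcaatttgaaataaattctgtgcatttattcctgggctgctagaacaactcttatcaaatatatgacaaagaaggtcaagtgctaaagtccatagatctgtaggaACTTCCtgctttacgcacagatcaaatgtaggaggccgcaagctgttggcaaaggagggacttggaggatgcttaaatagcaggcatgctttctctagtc
Set against each other without gaps, the last 100 bases of these windows were identical at 92 positions. In both the match began 100 bases before the start. GGAAGT was thus also in the window of Lyz2, whereas GAGGAA was not. The windows of the lower genes C1qb, C1qc, Fcgr1 and Mrc1 held GAGGAA as well. The lower genes C1qa, Adgre1, Tyrobp and Csf1r were not searched. Both motifs were chosen after the windows had been read, and their part in the Lyz2 value was not tested.

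**Figure D2:**
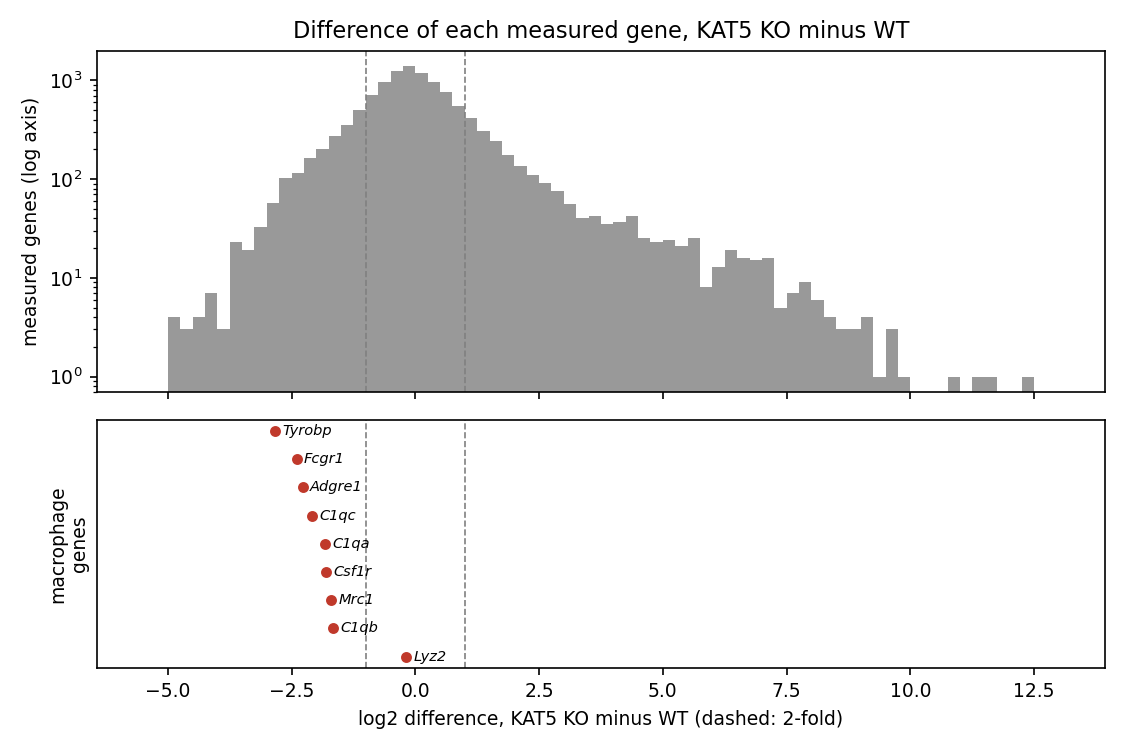
Log2 difference, KAT5 KO minus WT, of all 11652 measured genes (above, number of genes per bin on a log axis) and of the 9 macrophage genes (below), with 2-fold marked by dashed lines. Tyrobp lies furthest to the left at -2.84 and Lyz2 near 0 at -0.18.

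The ligands and transcription factors around the CSF1 receptor were mostly lower too. Of 7 such genes on the array, 5 were 2-fold or more lower, 1 was higher and 1 lay within 2-fold, with a median of -1.22. Csf1, a ligand that tubule and stromal cells can make, was at 8.84 on the KAT5 KO array and 10.60 on the WT array, a difference of -1.76. Il34, the other ligand, was near the background level at 5.19 on the KAT5 KO array and 6.01 on the WT array. Spi1 was at 18.20 on the KAT5 KO array and at the highest value of the arrays, 19.93, on the WT array, so that it was at least 3.32-fold lower. Runx1, a regulator of blood cell development, differed by -1.86, Cebpa, a myeloid factor also expressed in other tissues, by -1.22, and Irf8, a factor of monocytes and dendritic cells, by -1.05. Irf8 lay within 2-fold, at -0.96, when the arrays were centred on their medians. Maf, a factor of tissue macrophages that other cells also express, was the exception, at 12.97 on the KAT5 KO array and 11.19 on the WT array, a difference of 1.78.

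Partners of Tyrobp and Fcgr1 in signalling lay on the same side as these members, apart from Trem2. Of 9 measured Fc receptors and DAP12 partners, 7 were lower by 2-fold or more, 1 was higher, and the median was -1.94. Fcgr4, an activating IgG receptor of the mouse, had the most negative difference on this list, at 8.68 on the KAT5 KO array and 12.19 on the WT array (-3.51). Fcgr3 differed by -2.50, and Fcgr2b, the inhibitory IgG receptor, by -1.44, although Fcgr2b lay within 2-fold, at -0.99, with the trend on level removed. Fcer1g, the common γ chain through which Fcgr1 signals, differed by -1.94. Among the downstream enzymes, the kinase Syk differed by -2.48 and the phospholipase Plcg2 by -2.33. Trem2, a lipid receptor that signals through DAP12 and is also on the list of tissue macrophage markers, was at 7.37 on the KAT5 KO array and 5.96 on the WT array, a difference of 1.41.

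Other markers of tissue macrophages were more mixed than the 9 genes. Of 24 listed, 19 were measured, of which 10 were 2-fold or more lower, 4 were higher and 5 lay within 2-fold, with a median of -1.01 that came to -0.93 when the arrays were centred. Aif1, which encodes the macrophage protein Iba1, differed by -2.76 and the lysosomal protease Ctss by -2.28. Mpeg1, a pore-forming protein of phagocytes, differed by -2.14, the complement receptor C3ar1 by -1.95 and Ms4a7 by -1.80. The chemokine receptor Cx3cr1, a marker of kidney macrophages, differed by -1.74. Higher were Lgmn, a lysosomal protease that PT cells also express (2.46), Trem2 (1.41), the receptor for dying cells Mertk (1.30) and the scavenger receptor Msr1 (1.07). Msr1 came to 0.93 with quantile normalization. Neither array had Lyve1, Folr2, Marco, Vsig4 or Cbr2 above background, and Cd163, a haemoglobin scavenger receptor, was above it on the WT array only.

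**Figure D3:**
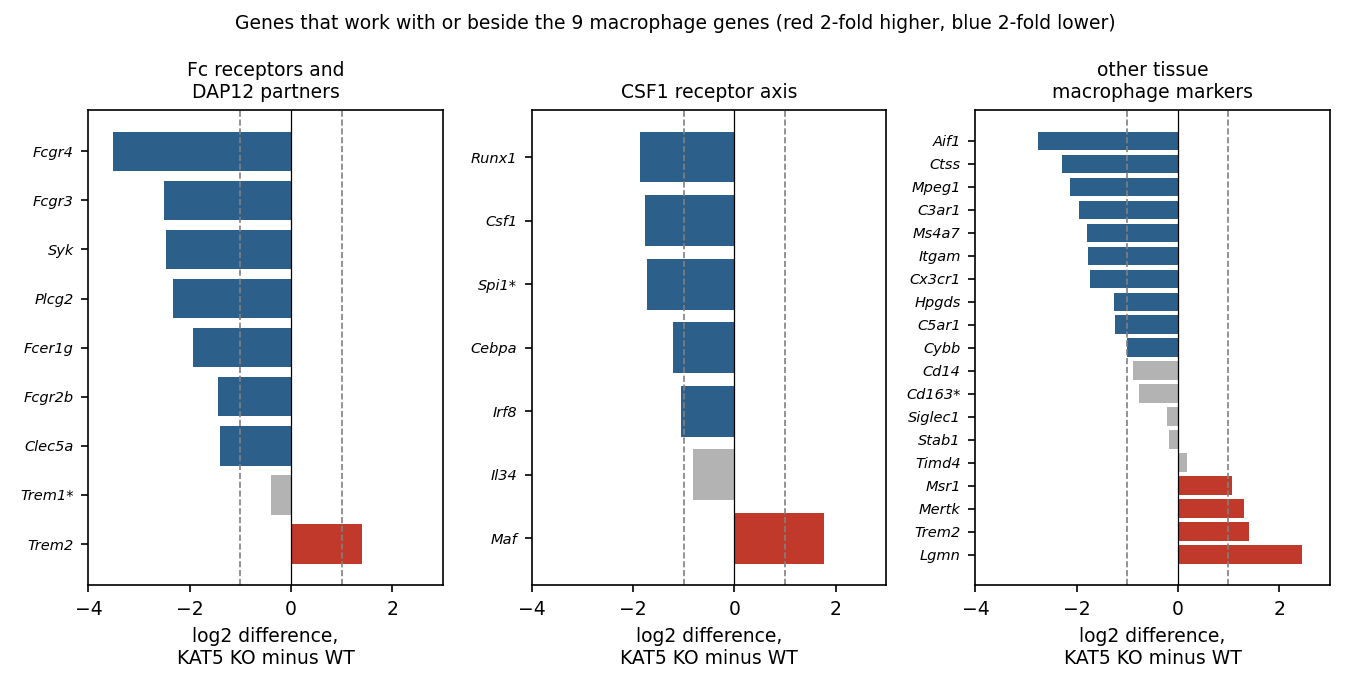
Log2 difference, KAT5 KO minus WT, of measured genes in the lists of Fc receptors and DAP12 partners, the CSF1 receptor axis and other tissue macrophage markers, with 2-fold marked by dashed lines. Blue bars are 2-fold or more lower, red bars 2-fold or more higher, grey bars within 2-fold, and an asterisk marks a lower bound. Trem2, Maf, Msr1, Mertk and Lgmn are the genes on the right past 2-fold.

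C1q acts at the head of the classical complement pathway, and the other genes of the pathway lay on both sides. Of 5 on the array, 1 was 2-fold or more lower, 2 were higher and 2 lay within 2-fold, with a median of -0.15. C2, the protease of the pathway's convertase, was 10.8-fold higher or more, with 8.56 on the KAT5 KO array and 4.84, under background, on the WT array. C1ra, a protease that binds C1q, was at 6.56 on the KAT5 KO array and 5.22 on the WT array, a difference of 1.33. Serping1, the inhibitor of these proteases, was at least 6.04-fold lower, with 4.82, under background, on the KAT5 KO array and 7.73 on the WT array. C3 was not analysed here.

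Lysosomal genes that all cells use lay on both sides. Of 11 on the array, 3 were 2-fold or more lower, 4 were higher and 4 lay within 2-fold, with a median of 0.25. The protease Ctsl differed by 4.27 and the sialidase Neu1 by 3.03, whereas the cholesterol carrier Npc2 differed by -1.82.

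Genes expressed across leukocytes were lower as well, with a more negative median. Of 12 pan-leukocyte genes, 11 were lower by 2-fold or more, none was higher, and the median was -2.46, against -1.82 for the 9 macrophage genes. Their differences ran from -3.49 for Cd52 to 0.02 for Was. Ptprc, the leukocyte antigen CD45, was at 15.48 on the KAT5 KO array and 17.68 on the WT array, a difference of -2.20. Tyrobp, at -2.84, was the member that lay below the pan-leukocyte median, and the other 8 lay above it.

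Genes listed under single leukocyte types were lower in part, with fewer genes measured. Among 9 measured monocyte genes, 4 were lower by 2-fold or more, 5 lay within 2-fold and the median was -0.53. With the background level set at the 99th percentile instead, or at the median of all probe sets, that median was -1.19. Among them Ccr2, the receptor that draws monocytes out of the blood, was at 11.97 on the KAT5 KO array and 15.69 on the WT array, a difference of -3.72, whereas Ly6c2 differed by -0.53. Of 8 measured genes of dendritic cells, 5 were lower (median -1.29), with Clec9a at -3.51 and Itgax at -2.95. Of 7 neutrophil genes, 4 were lower (median -1.26). Of 7 lymphocyte genes, 4 were lower (median -1.04), with the B cell genes Cd79a at -2.83 and Cd79b at -2.23. The T cell genes Cd3d, Cd3e and Cd3g lay under background on both arrays. None of the measured genes in these lists of cell types was 2-fold or more higher. Lyz2 is shared by macrophages, monocytes and neutrophils. The neutrophil genes S100a8 and S100a9 differed by -2.12 and -2.71, while 3 of the 7 lay within 2-fold, among them Retnlg at -0.48. The part of these cell types in the Lyz2 value was not tested.

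**Figure D4:**
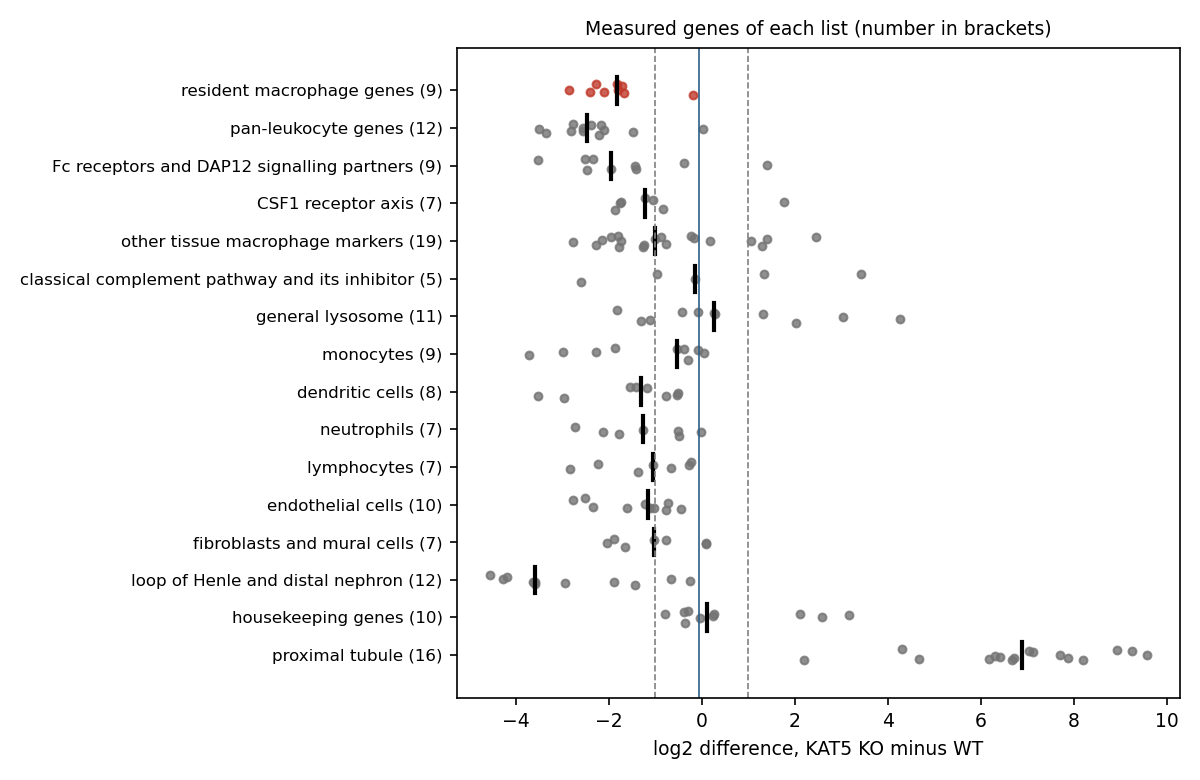
Log2 difference, KAT5 KO minus WT, of the measured genes of each list (points, number in brackets) with the list's median (black bar), the median of all measured genes (blue line, -0.05) and 2-fold (dashed). The macrophage genes (red) have a median of -1.82, below that of all measured genes, and the pan-leukocyte genes lie at -2.46.

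Cells outside the blood lineage were compared in the same way. Of 10 measured endothelial genes, 7 were 2-fold or more lower, with a median of -1.16. With the background level at the 99th percentile, 4 were lower and the median was -0.92. Of 7 genes of fibroblasts and mural cells 4 were lower, with a median of -1.03. The 10 housekeeping genes on the array had a median of 0.11, with 0 lower and 3 higher. The lower levels of macrophage genes were seen beside lower levels of other non-PT cell types and higher levels of PT genes. The arrays differed both in genotype and in the levels of PT markers. Whether macrophage genes differ by genotype in preparations with the same share of PT cells therefore cannot be told. The Y-linked genes Uty, Eif2s3y and Kdm5d were under background on the KAT5 KO array only. A difference in the sex of the mice, if there was one, cannot be told apart from genotype either.

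The 8 lower genes stayed 2-fold or more lower under each of the 3 further scalings, which were centring on the median, quantile normalization and removal of the trend on level. With the trend on level removed, their values were nearest to 0, from -2.52 for Tyrobp to -1.17 for C1qb. With quantile normalization, Tyrobp was at -3.02 and C1qb at -1.66. Relative to the median of the housekeeping genes, the median of the 9 genes was -1.93.

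**Figure D5:**
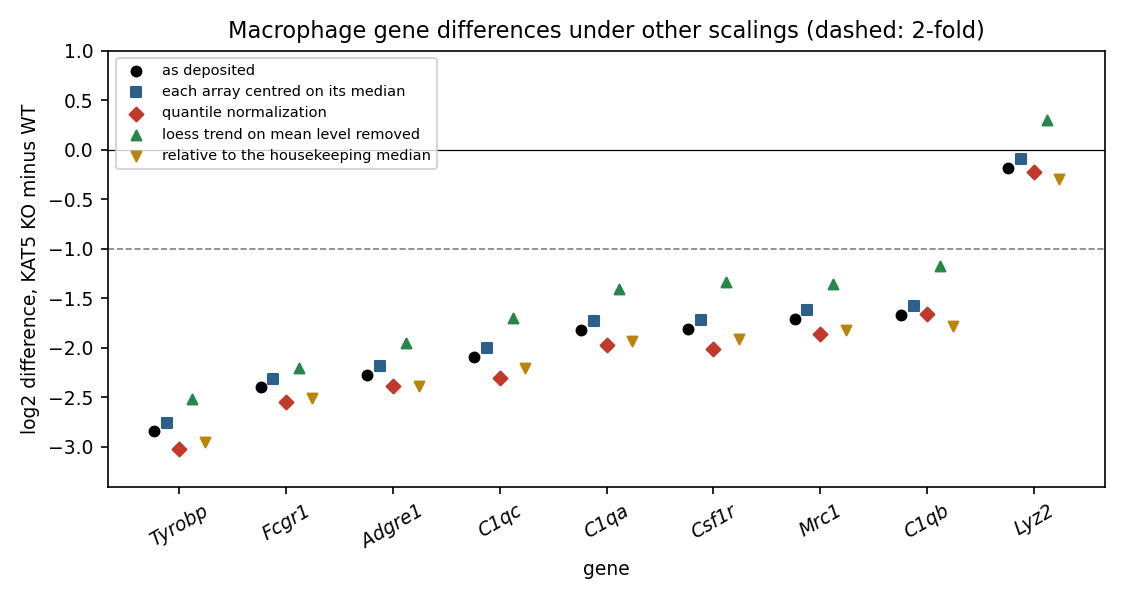
Log2 difference, KAT5 KO minus WT, of the 9 macrophage genes as deposited, after 3 further scalings of the arrays and relative to the housekeeping median, with 2-fold dashed. The 8 genes other than Lyz2 lie below -1 in each, and Lyz2 lies between -0.29 and 0.30.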

How the data were processed

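Each genotype, KAT5 KO and WT, had 1 Clariom S mouse array, which received 64 ng of RNA from isolated PT cells. The log2 levels of 28846 probe sets deposited by the authors came, per the submitters' processing notes, from RMA and the Transcriptome Analysis Console. RMA brings both arrays to a common distribution of probe intensities, so a large change in some genes can move others. Versions and genome build are not given in the sources used here.

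Of the probe sets, 19572 carried 1 gene symbol in the platform annotation, 0 several and 9274 none. All 19505 gene numbers were in the RefSeq table. Probe sets were averaged for 55 genes, none of them a member. The background level came from 1448 receptor genes. Levels under it were raised to it, and differences of genes above it on 1 array only, or at the highest value of 19.93, are lower bounds.

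Members and lists were chosen with earlier results of these data known. Named were all members, Kat5 and Y-linked genes, up to 5 genes in each direction per list, genes against a list's majority, and any gene of the CSF1 receptor, DAP12 and complement lists. Ly6c2, Ptprc, Cx3cr1, Cd163, genes under background and the neighbours Hcst and Lyz1 were added after their values were seen. Promoter motifs were chosen after the windows had been read. No test was possible. Alternatives were 3 further scalings, 3 other background rules, the brightest probe set, the mean for the median, the housekeeping median as reference, and other thresholds. A run of the code on simulated arrays recovered 200 of 200 genes that had been set to differ. These genes were set well past the 2-fold threshold with little noise, so the run checks the code only. The error rate of the calls on the real arrays was not tested. Scripts ran under Python 3.11.15 with pandas 2.3.3, numpy 2.4.6 and statsmodels 0.14.6, and figures were drawn with matplotlib 3.10.9.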

Additional observations from a re-analysis of the deposited data

How the results depend on the processing

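The number of macrophage genes 2-fold or more lower was 8 under each alternative run, and thresholds of 1.5-fold and 3-fold also gave 8. The other background rules and the brightest probe set could not change this number. The members lay above every background level used, and none had several probe sets. The median of the members ranged from -2.02 with quantile normalization to -1.40 with the trend on level removed. Lyz2 ranged from -0.23 to 0.30 over the scalings and background rules, and was above 0 only with that trend removed. Over all measured genes, 3132 were lower and 3103 higher at 1.5-fold, and 917 and 1245 at 3-fold, against 1854 and 2067 at 2-fold. The median difference of all 19505 genes, measured or not, was 0.02 with the trend removed, against -0.11 as deposited. Of 157 measured genes of the lists, 4 changed their call (2-fold or background) with centring, 3 with quantile normalization and 8 with the trend removed, among them Cybb under all 3. The monocyte genes had a mean of -1.34, and the lymphocyte median was -0.66 with no background level. Leaving out arrays was not possible. No paired analysis was possible because each genotype has 1 array.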
